A study of Mus musculus with 4 samples.

Results

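The 10 genes described here encode the main parts of elastic fibres and microfibrils: elastin (Eln), fibrillin 1 (Fbn1), the fibulins Fbln1, Fbln2 and Fbln5, Emilin1, the microfibril-associated proteins Mfap4 and Mfap5, and the cross-linking enzymes Lox and Loxl1. They were taken by gene symbol from 25738 genes to which the measured transcripts could be assigned by position. All 10 were found, and all 10 were among the 11264 genes that reached 1 FPKM in at least 2 libraries and entered the comparison. FPKM counts fragments per kilobase of transcript and per unit of mapped library size, so levels can be set side by side between genes, and transcripts were summed per gene. Stroma of proximal prostatic ducts, the part of the ductal tree next to the urethra, was compared with stroma of distal ducts, which end at the tips of the lobes. All cells came from adult C57BL/6 mice with no treatment named, and were sorted by flow cytometry for Sca-1, a surface marker found on fibroblasts and mesenchymal progenitors, after removal of cells with lineage markers, CD24 or CD49f. Each region has 2 libraries, which the labels number 2 and 3. Where a pair of values is given for a region, it is library 2 and then library 3. No source used here says whether they came from separate or pooled animals, or which lineage markers were used. The p-values below therefore reflect variation among these 4 libraries alone, part of which may be technical.

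Elastic fibres let a tissue stretch and recoil. Microfibrils built from fibrillin form a scaffold on which tropoelastin, the soluble product of Eln, is laid down and then joined into an insoluble core by lysyl oxidases. Fibulins and microfibril-associated proteins link the core, the scaffold and the cell surface, and fibrillin microfibrils also hold latent TGF-beta and BMP in the matrix. Fibroblasts and smooth muscle cells are the known makers of these fibres in most organs.

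In proximal stroma Eln, Mfap4 and Fbln1 stood well above their distal levels, while Fbn1 and Fbln2 lay below them in both libraries by smaller margins, and Emilin1 barely so. Fbln5, Mfap5 and Lox overlapped between regions in the deposited FPKM. Loxl1 lay barely above its distal levels. The differences ranged from 2.99 for Eln to -0.66 for Fbln2 on the log2(FPKM + 1) scale, proximal minus distal. Of the 10 genes 0 passed the test (limma, Benjamini-Hochberg adjusted over 11264 genes, threshold 0.05), as did 0.00% of all tested genes, and 3 reached an unadjusted p under 0.05, all with higher proximal values. An unadjusted p under 0.05 was reached by 3.16% of all tested genes, 2.25% with higher proximal and 0.906% with higher distal values. For 4 of the 10 genes both proximal values exceeded both distal values, against 13.0% of all tested genes, and for 3 both lay below, against 8.64%. The differences were positive for 5 genes and negative for 5, with a median of 0.14, against a median of 0.09 over all tested genes, of which 60.4% were positive. Median ratio scaling of the libraries turned the median of the 10 genes to -0.03 and that of all genes to -0.05, and kept the sign of each of the 10 genes. With 2 libraries on each side, the smallest two-sided p of an exact permutation test is 0.333.

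The libraries resembled each other more by number than by region. Pearson's r of log2(FPKM + 1), which is across genes and not across independent samples, was 0.953 between proximal 2 and distal 2 and 0.952 between proximal 3 and distal 3, against 0.869 between the proximal and 0.911 between the distal libraries. Between 10147 and 11458 genes per library reached 1 FPKM. No source used here gives total fragments, and depth in fragments is unknown. Deposited coverage of the measured transcripts of the 10 genes, their mean read depth, ran from 68.3 to 1910. In bulk RNA, fewer cells of a type and less RNA per cell cannot be told apart.

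The sequences that follow belong to the transcripts the results turn on, from GENCODE M21 on mm10. Elastin is made of short repeats, and a stretch of its coding exon 29 of 37, on chromosome 5 at 134708006 to 134708065 (minus strand), shows them with codons of the form GGN, which specify glycine, in capitals. In these 20 codons 14 had that form.
Eln exon 29: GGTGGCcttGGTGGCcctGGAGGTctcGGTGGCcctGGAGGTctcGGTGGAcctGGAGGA
Over the whole Eln coding sequence of 2580 bases, codons of the form GGN, GCN, GTN and CCN together made up 76.9%, against 22.6% (Mfap5) to 35.6% (Loxl1) in the other 9 genes. Cysteine codons, which mark the disulfide-rich modules of fibrillins and fibulins, made up 0.233% of Eln and 12.6% of Fbn1.

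Fbln1 and Fbln2 were each measured as a pair of transcripts that encode different proteins. The Fbln1 transcripts end in different terminal exons, the arrangement known for the fibulin-1 variants C and D, and their last coding bases are shown with the stop codon in capitals (chromosome 15, plus strand, 85251740 to 85251799 for the shorter and 85285120 to 85285179 for the longer).
Fbln1 shorter: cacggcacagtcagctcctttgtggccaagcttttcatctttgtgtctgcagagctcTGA
Fbln1 longer: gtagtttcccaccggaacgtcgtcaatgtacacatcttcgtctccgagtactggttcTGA
The Fbln2 transcripts share both ends and differ in length by 141 nt. This is the length of coding exon 9 on chromosome 6 at 91259630 to 91259770 (plus strand), which equals 47 codons and keeps the frame. The longer measured transcript is taken to hold exon 9 from this length alone. Exon 9 is shown in capitals between 15 bases of each neighbouring exon.
Fbln2 exon 9: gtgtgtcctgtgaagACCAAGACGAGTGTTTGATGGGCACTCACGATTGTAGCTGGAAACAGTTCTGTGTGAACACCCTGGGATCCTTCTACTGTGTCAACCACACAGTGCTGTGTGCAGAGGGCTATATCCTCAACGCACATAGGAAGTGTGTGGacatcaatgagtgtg

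Fbln1 and Fbln2 also stood on opposite sides of the comparison, so the 250 bases before the start of their measured transcripts are shown for both (RefSeq, GRCm38.p6, plus strand, chr15:85205758-85206007 for Fbln1 and chr6:91212514-91212763 for Fbln2). Capitals mark matches, on either strand, to the GC box GGGCGG. Also searched were the CCAAT box, known by its letters, the TATA motif TATAAA, and for AP-1 the motif TGANTCA. The letters of these motifs do not contain one another.
Fbln1 promoter: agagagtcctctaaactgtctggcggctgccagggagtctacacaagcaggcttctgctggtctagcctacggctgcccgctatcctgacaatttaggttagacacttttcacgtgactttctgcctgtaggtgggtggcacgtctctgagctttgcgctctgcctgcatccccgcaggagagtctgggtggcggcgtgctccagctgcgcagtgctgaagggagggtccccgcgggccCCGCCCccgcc
Fbln2 promoter: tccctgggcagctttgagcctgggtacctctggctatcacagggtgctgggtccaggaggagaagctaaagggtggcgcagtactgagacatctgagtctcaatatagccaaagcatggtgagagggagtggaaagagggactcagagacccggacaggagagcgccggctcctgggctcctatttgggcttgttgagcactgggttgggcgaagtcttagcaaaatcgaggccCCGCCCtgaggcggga
Each window held 1 match, a GC box that begins 11 bases before the start of Fbln1 and 16 bases before the start of Fbln2. Of 32851 promoter windows of that length, 32.7% held a GC box, 33.9% a CCAAT box, 12.4% a TATA box and 6.75% an AP-1 site. Promoters of 5 of the 10 genes were in the table used. A match of letters is a description and shows no binding.

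Elastin, the rubber-like core protein, differed most between regions of the 10 genes. Eln stood at 282 and 247 FPKM proximally, against 61.9 and 16.8 FPKM distally. The regions did not overlap, and the lowest proximal value was 3.995 times the highest distal value. The single measured Eln transcript has narrow deposited bounds, 244 to 251 FPKM in proximal 3 and 60.4 to 63.5 FPKM in distal 2, while the distal libraries differed from each other 3.68-fold. Mean Eln levels were 265 ± 24.4 FPKM proximally and 39.4 ± 31.9 FPKM distally (SD, n = 2 per region), a log2 difference of 2.99 ± 0.64 (SE, 95% interval 1.37 to 4.60). That difference ranked 27 from the top among 11264 genes and did not pass the test (unadjusted p = 0.00477, adjusted p = 0.858, limma). Without distal 2 the log2 difference was 3.90 and passed (adjusted p = 1.89e-05, limma), but that fit has a lone distal library that is assumed to vary like the proximal ones. Without distal 3 it was 2.07 (adjusted p = 0.552, limma). The Eln gene occupies bases 134702593 to 134747323 of chromosome 5, on the minus strand of mm10. Of the other genes named first above, Mfap4 occupies 61485431 to 61488900 of chromosome 11, Fbln1 85205949 to 85286535 of chromosome 15 and Fbln2 91212455 to 91272540 of chromosome 6, all on the plus strand, and Fbn1 125300594 to 125507993 of chromosome 2 on the minus strand.

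**Figure D1:**
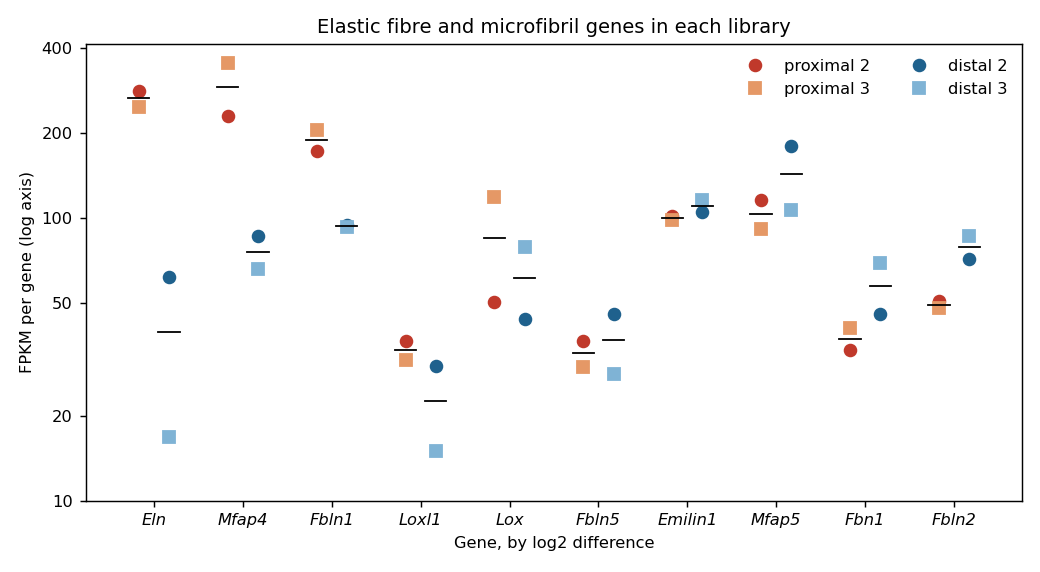
FPKM of the 10 genes (log axis) in each library, proximal left of distal within each gene, with black bars at the mean of 2 libraries and genes ordered by their log2 difference. Eln, Mfap4, Fbln1 and, narrowly, Loxl1 have both proximal points above both distal points, and Fbn1, Fbln2 and, narrowly, Emilin1 have them below.

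Smooth muscle cells also make elastin, and the summed level of their markers overlapped between regions. The 10 smooth muscle markers summed to 370 and 209 FPKM proximally, against 407 and 291 FPKM distally, and of 8 tested markers 2 had positive differences. Of these 8, 1 lay above in both proximal libraries, against 13.0% of all tested genes, and 2 lay below, against 8.64%. Myh11, the heavy chain of smooth muscle myosin, was the one above, at 12.3 and 5.32 FPKM proximally against 5.11 and 2.79 FPKM distally. Synpo2 and the actin gene Actg2 lay below, Actg2 at 3.42 and 0.862 against 6.87 and 3.82 FPKM. The actin gene Acta2 stood at 53.5 and 22.9 against 75.8 and 42.7 FPKM. The actin-binding protein Tagln stood at 75.4 and 18.8 against 106 and 48.6 FPKM. Acta2 and Tagln overlapped between regions. The part of smooth muscle cells in the Eln difference was not tested. The 7 pericyte markers summed to 80.9 and 90.2 FPKM proximally and 57.2 and 71.8 FPKM distally. Of 5 tested 4 had positive differences and 1 a negative one, while 60.4% of all tested genes were positive. Under quantile normalization and under median ratio scaling 2 were positive and 3 negative. Most of the pericyte sum was Pdgfrb, a PDGF receptor that fibroblasts also carry, at 64.3 and 58.4 FPKM proximally against 33.9 and 36.6 FPKM distally. Cspg4, or NG2, a proteoglycan that marks pericytes, went the other way without overlap, at 7.25 and 7.73 FPKM proximally against 15.1 and 17.7 FPKM distally, and Rgs5 did not exceed 1.06 FPKM. The pericyte markers thus did not go one way, and their part in the Eln difference was not tested.

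The microfibril genes did not go one way. Mfap4, a fibrinogen-domain protein that binds elastin and fibrillin, stood at 229 and 352 FPKM proximally, against 86.1 and 65.9 FPKM distally. Both proximal values lay above both distal values, the lowest proximal being 2.66 times the highest distal. Mean levels were 291 ± 86.6 FPKM proximally and 76.0 ± 14.3 FPKM distally (SD, n = 2 per region), a log2 difference of 1.90 ± 0.36 (SE, 95% interval 0.98 to 2.83), which ranked 99 from the top and did not pass (unadjusted p = 0.00298, adjusted p = 0.672, limma). Fbn1, the backbone of the microfibril, showed the opposite order, with 34.0 and 40.8 FPKM proximally against 45.9 and 69.2 FPKM distally. Its proximal values lay below the distal ones, but the distal libraries differed more from each other than distal 2 did from proximal 3, and under median ratio scaling the regions overlapped. The log2 difference of Fbn1 was -0.58 ± 0.36 (SE, 95% interval -1.49 to 0.32, adjusted p = 0.9999, limma), which ranked 527 from the lowest of all tested genes. It was -0.29 without distal 3 and -0.88 without distal 2.

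Mfap5, also known as MAGP-2, a small glycoprotein bound along fibrillin microfibrils, had the highest distal mean of the 10 genes. It stood at 116 and 91.4 FPKM proximally, against 180 and 107 FPKM distally. The regions overlapped, and the log2 difference was -0.43 ± 0.38 (SE, 95% interval -1.40 to 0.54). Under median ratio scaling it was -0.60, and both proximal values lay below both distal values. The Mfap5 difference was -0.06 without distal 2, -0.80 without distal 3 and -0.26 without proximal 3. Emilin1, which sits where elastin meets the microfibril and restrains TGF-beta processing, was the steadiest of the 10 genes across the 4 libraries, at 101 and 98.6 FPKM proximally and 105 and 116 FPKM distally. Its proximal values were lower without overlap, by a log2 difference of -0.14 ± 0.29 (SE) that ranged from -0.07 without distal 3 to -0.21 without distal 2. They overlapped under quantile normalization and under median ratio scaling. The 95% interval of the Emilin1 difference, -0.88 to 0.60, still leaves room for a fold of 0.543 to 1.52.

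The fibulins, calcium-binding glycoproteins that bridge elastin, fibrillin and basement membranes, split between the regions. Fbln1, a fibulin found inside elastin cores and on basement membranes, stood at 172 and 204 FPKM proximally, against 94.4 and 92.8 FPKM distally. The distal libraries were nearly equal and lay below both proximal ones. Mean levels were 188 ± 23.0 FPKM proximally and 93.6 ± 1.15 FPKM distally (SD, n = 2 per region), with a log2 difference of 0.99 ± 0.30 (SE, 95% interval 0.24 to 1.75, unadjusted p = 0.0192, adjusted p = 0.9999, limma). Fbln2, the largest fibulin of the set, had lower proximal values, 51.0 and 47.9 FPKM proximally against 71.5 and 86.4 FPKM distally. These did not overlap, and the log2 difference was -0.66 ± 0.31 (SE, 95% interval -1.44 to 0.12, unadjusted p = 0.0816, limma), which ranked 421 from the lowest. Fbln5, which tethers tropoelastin and lysyl oxidase-like 1 to the microfibril and is required for elastic fibres in mice, stood at 36.8 and 29.7 FPKM proximally, against 45.8 and 28.1 FPKM distally. Its regions overlapped, with a log2 difference of -0.11 ± 0.38 (SE, 95% interval -1.09 to 0.86) that turned positive without proximal 3 (0.04) and without distal 2 (0.23). Under median ratio scaling the Fbln5 difference was -0.28, and both proximal values lay below both distal values.

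The separate transcripts add to this. The shorter Fbln1 transcript stood at 113 and 139 FPKM proximally, against 60.1 and 58.97 FPKM distally. The longer one stood at 59.2 and 65.8 FPKM proximally against 34.3 and 33.8 FPKM distally. Both variants were thus higher in proximal stroma, by ratios of means of 2.11 and 1.84. The shorter transcript made up 65.5% and 67.8% of Fbln1 in the proximal and 63.6% and 63.6% in the distal libraries, a difference of 3.07 percentage points (exact permutation p = 0.333, two-sided). These shares did not overlap, and this p is the smallest that the test can give.

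For Fbln2, the longer transcript, taken to hold exon 9, was the one whose values were separate between regions. It stood at 25.4 and 35.4 FPKM proximally, against 49.7 and 66.1 FPKM distally, without overlap. The shorter transcript, taken to lack exon 9, stood at 25.6 and 12.5 FPKM proximally and at 21.8 and 20.4 FPKM distally, so proximal 2 was the highest and proximal 3 the lowest of the 4 libraries. It made up 50.2% and 26.1% of Fbln2 in the proximal and 30.5% and 23.6% in the distal libraries, with proximal 2 standing apart (exact permutation p = 0.667, two-sided). The split of fragments between overlapping transcripts is a model estimate by the authors' software, and the deposited bounds do not cover the spread between libraries.

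**Figure D2:**
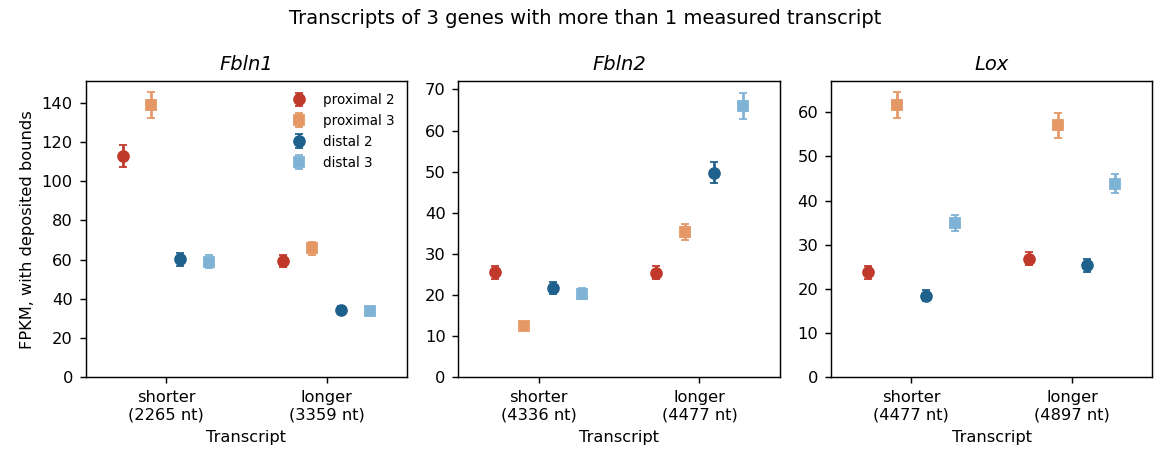
FPKM of the shorter and the longer transcript of Fbln1, Fbln2 and Lox in each library, with the deposited lower and upper bounds as error bars (linear axes from 0). Both Fbln1 transcripts are higher in the proximal libraries, and of the Fbln2 transcripts the longer, taken to hold exon 9, is lower in both proximal libraries.

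The cross-linking enzymes, copper-dependent amine oxidases that act on lysines of elastin and collagen, overlapped or nearly overlapped between regions. Lox stood at 50.6 and 119 FPKM proximally, against 43.8 and 78.8 FPKM distally. Its values followed the library number, both libraries numbered 3 lying above both numbered 2. The log2 difference of Lox was 0.40 ± 0.54 (SE, 95% interval -0.98 to 1.77), and it was -0.21 without proximal 3 and -0.02 without distal 2. Lox was measured as 2 transcripts of 4477 and 4897 nt, and the shorter made up 46.9% and 51.9% in the proximal and 42.2% and 44.4% in the distal libraries (exact permutation p = 0.333, two-sided). The shares did not overlap, and this p is the smallest that the test can give with 2 libraries per region.

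Loxl1, the family member tied most closely to elastin and bound by Fbln5, was the gene of lowest average level of the 10. It stood at 36.7 and 31.3 FPKM proximally, against 30.05 and 14.997 FPKM distally. Proximal 3 was only 1.04 times distal 2, so the regions were barely separate, and the log2 difference was 0.65 ± 0.44 (SE, 95% interval -0.46 to 1.76, unadjusted p = 0.196, limma). Without distal 3 the difference was 0.17, and without distal 2 it was 1.13.

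**Figure D3:**
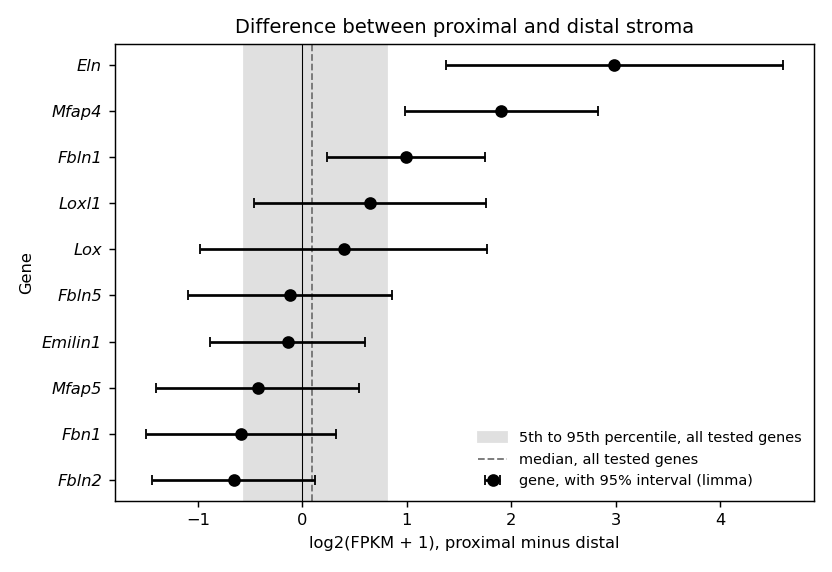
Differences in log2(FPKM + 1), proximal minus distal, for the 10 genes, with 95% intervals from limma as bars, the median of all tested genes as a dashed line and their 5th to 95th percentile range shaded. Eln, Mfap4 and Fbln1 lie to the right of the shaded range and Fbn1 and Fbln2 to its left. The intervals of the 7 genes other than Eln, Mfap4 and Fbln1 include 0, those of Fbn1 and Fbln2 among them.

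The makeup of elastic fibre transcripts differed accordingly. The 10 genes summed to 1110 and 1262 FPKM proximally, against 765 and 676 FPKM distally. Without Eln and Mfap4 the other 8 genes summed to 598 and 663 FPKM proximally and 616 and 593 FPKM distally, overlapping sums. Eln made up 25.4% and 19.6% of the summed level in proximal 2 and proximal 3, against 8.10% and 2.49% in distal 2 and distal 3, and Mfap4 20.7% and 27.9% against 11.3% and 9.75%. Mfap5 made up 10.4% and 7.24% in the proximal against 23.5% and 15.8% in the distal libraries. The Mfap5 shares also fall where Eln and Mfap4 raise the sum, and the FPKM of Mfap5 itself overlapped between regions.

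The order of the genes shifted with these shares. Eln was first in proximal 2 and second to Mfap4 in proximal 3, and it ranked 6 of 10 in distal 2 and 9 of 10 in distal 3. Distal 2 was led by Mfap5 with Emilin1 next, and distal 3 by Emilin1 with Mfap5 next, a pair whose distal values overlapped. Fbln1 held rank 3 in each of the 4 libraries, and Loxl1 rank 9 or 10. Fbln5, Fbn1 and Fbln2 lay between 28.1 and 86.4 FPKM in every library.

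**Figure D4:**
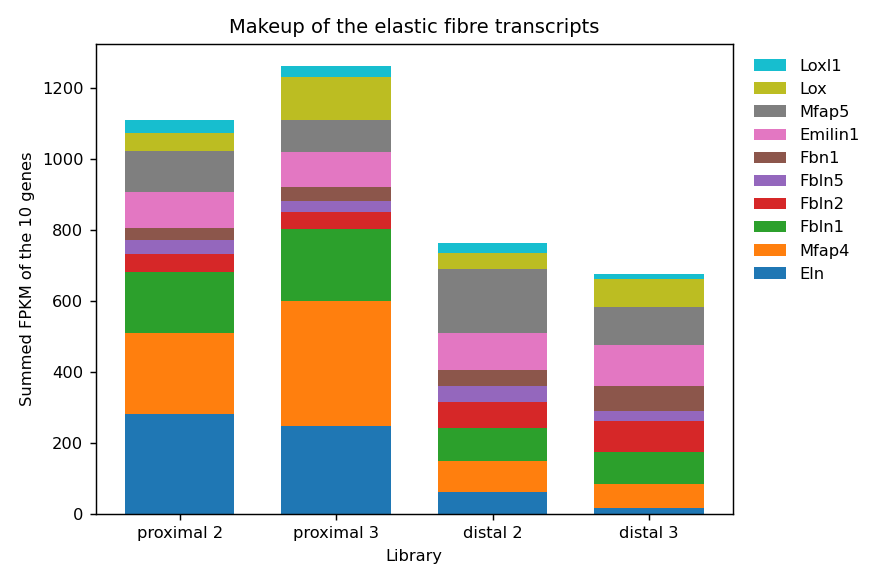
Summed FPKM of the 10 genes in each library, stacked by gene on a linear axis from 0, with the proximal libraries at the left. The proximal bars reach 1110 and 1262 FPKM and the distal bars 765 and 676 FPKM, and the blocks above Eln and Mfap4, which stand at the bottom, sum to between 593 and 663 FPKM in all 4 libraries.

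Ratios within a library need no scaling between libraries and showed the same contrast. There were 8.29 and 6.07 Eln per Fbn1 in proximal 2 and proximal 3, against 1.35 and 0.243 in distal 2 and distal 3. Lox and Loxl1 together came to 0.310 and 0.606 per Eln in the proximal libraries, against 1.19 and 5.58 in the distal ones. Among the fibulins, Fbln1 per Fbln2 was 3.37 and 4.27 in proximal against 1.32 and 1.07 in distal libraries, and among the microfibril-associated proteins Mfap4 per Mfap5 was 1.98 and 3.85 against 0.478 and 0.615. None of these 4 ratios overlapped between regions, and they are given without a test because the genes were set in pairs with their values known. The ratio to Fbn1 and that of the lysyl oxidases both rest on the same Eln values. Lox per Loxl1 did overlap, at 1.38 and 3.79 in proximal against 1.46 and 5.25 in distal libraries.

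The wider pathway held 0 called genes in any of 6 further lists, with medians on both sides of the 0.09 of all tested genes. Quantile normalization and median ratio scaling moved that median by -0.12 and -0.15, and no median of these 6 lists changed its sign under either. Of 22 other fibrillins, fibulins and microfibril proteins 14 were tested, 6 with positive and 8 with negative differences (median -0.04), and 0 reached an unadjusted p under 0.05. Mfap2, or MAGP-1, a close relative of Mfap5, stood at 50.3 and 33.7 FPKM proximally against 33.4 and 13.9 FPKM distally, the regions being barely separate. Emilin2 stood at 4.09 and 7.92 FPKM proximally against 11.7 and 11.6 FPKM distally, and the basement membrane protein hemicentin 2 (Hmcn2) at 1.86 and 1.04 against 4.02 and 2.73 FPKM. Fibulin 3 (Efemp1), named here after its values were seen, exceeded each of the 10 genes, at 1092 and 863 FPKM proximally and 917 and 753 FPKM distally, which overlap.

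Latent TGF-beta binding proteins are relatives of fibrillin, and some but not all of them dock TGF-beta on microfibrils. They gave 2 positive and 2 negative differences among 4 tested genes (median 0.37). Ltbp1 had a log2 difference of 0.95 ± 0.43 and Ltbp2 one of 0.86 ± 0.43 (SE), Ltbp2 standing at 3.94 and 4.78 FPKM proximally against 1.46 and 2.53 FPKM distally. Ltbp3 stood at 67.2 and 38.6 FPKM proximally against 66.3 and 49.2 FPKM distally. Ltbp4, named after its values were seen and known to guide Fbln5 onto microfibrils, was the family member of highest level, at 785 and 641 FPKM proximally and 805 and 737 FPKM distally, which overlap.

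A further list held other lysyl oxidases, the proteases and matrix proteins that activate them and the copper transporters that supply them. It also held Pcolce and Pcolce2, enhancers of procollagen processing. Its differences were mostly negative, in 8 of 10 tested genes (median -0.63), Pcolce and Pcolce2 among them. Over all tested genes 39.6% were negative, and 53.2% and 55.9% under quantile normalization and median ratio scaling. The list itself had 8 of 10 under both. An unadjusted p under 0.05 was reached by 2 of the 10, both with lower proximal values, against 0.906% of all tested genes in that direction. Loxl2, an oxidase of basement membrane collagen, stood at 17.0 and 12.1 FPKM proximally, against 31.8 and 35.7 FPKM distally (log2 difference -1.17 ± 0.36 SE). Pcolce2, an enhancer of procollagen processing by BMP1-type proteases, stood at 1.89 and 3.78 FPKM proximally against 11.2 and 9.14 FPKM distally (log2 difference -1.58 ± 0.46 SE). Fibronectin (Fn1), which recruits the protease that activates Lox, stood at 6.43 and 12.4 FPKM proximally against 13.8 and 28.2 FPKM distally. None of these 3 genes overlapped between regions, and the adjusted p of Loxl2 and Pcolce2 was 0.9999 for both (limma).

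Elastin receptors, elastin-degrading proteases and their inhibitors gave 0 genes at an unadjusted p under 0.05 among 7, 6 and 6 tested genes, with medians of -0.06, -0.23 and 0.31. Neu1, the sialidase of the elastin receptor complex, stood at 8.14 and 9.66 FPKM proximally against 6.00 and 5.61 FPKM distally. The integrin subunits Itgav and Itgb3 had log2 differences of -0.75 ± 0.53 and -0.77 ± 0.39 (SE), each within 2 SE of 0.

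Among the proteases, Mmp14, a membrane-bound collagenase, stood at 171 and 127 FPKM proximally against 243 and 202 FPKM distally. The gelatinase Mmp2 had 831 and 562 FPKM proximally against 979 and 760 FPKM distally. The elastolytic cathepsin Ctsk had 72.4 and 66.6 FPKM proximally against 49.8 and 49.7 FPKM distally. Mmp14 was thus lower and Ctsk higher in both proximal libraries, and Mmp2 overlapped. Mmp12 and Elane, elastases of macrophages and neutrophils, did not exceed 0.695 and 0.0474 FPKM. Of the inhibitors, Timp1 stood at 17.9 and 67.9 FPKM proximally against 63.1 and 91.1 FPKM distally. Reck, which restrains membrane proteases, had 52.5 and 29.8 FPKM proximally against 87.4 and 69.1 FPKM distally. The serpin Serpina3n had 21.4 and 44.2 FPKM proximally against 16.4 and 15.9 FPKM distally. Reck and Serpina3n did not overlap between regions, on opposite sides, while Timp1 did.

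**Figure D5:**
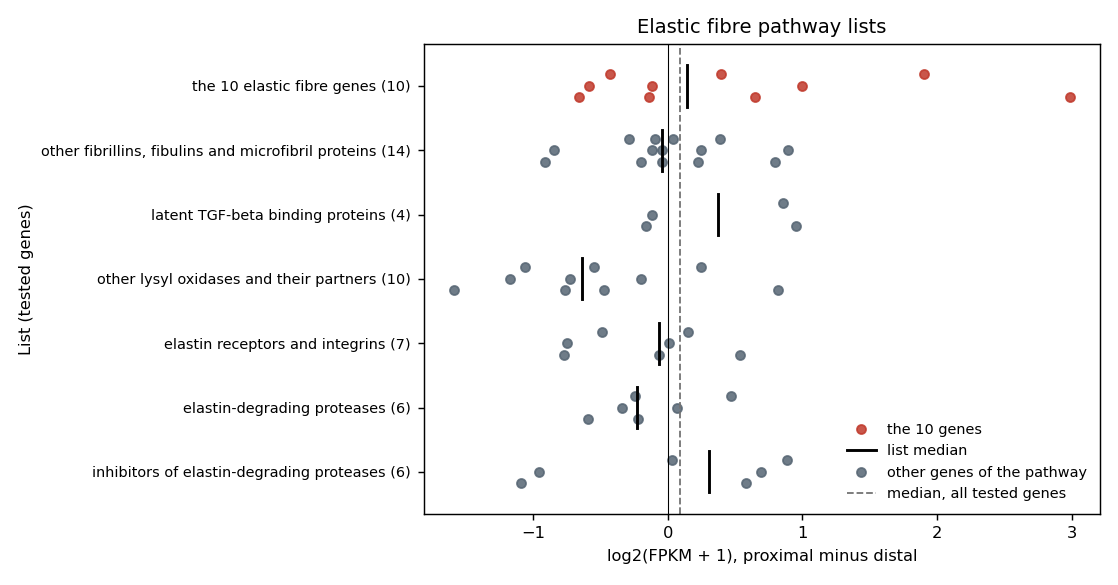
Difference in log2(FPKM + 1), proximal minus distal, of each tested gene in 7 lists, the 10 genes at the top in red and other pathway genes in grey, with list medians as black bars and the median of all tested genes dashed. Eln and Mfap4 lie to the right of every other gene shown, and the lysyl oxidase list has its median at -0.63.

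The patterns nearest to that of Eln were measured by the Euclidean distance between log2(FPKM + 1) values centred on each gene's mean over the 4 libraries, among 7423 other genes averaging at least 5 FPKM. Pdlim3, an actin-associated LIM protein, was nearest at a distance of 0.447, with 182 and 185 FPKM proximally against 55.1 and 16.2 FPKM distally. Gsta3, Ppp1r14a, Cldn10 and Nrep followed at distances of 0.749 to 0.814. Ppp1r14a, an inhibitor of myosin phosphatase, stood at 30.3 and 16.2 FPKM proximally against 5.09 and 1.55 FPKM distally. With 4 libraries many genes can share a pattern, and Eln was chosen for this with its values known. Among the 10 genes themselves Fbln5 and Mfap5 were the closest pair (distance 0.317), Fbn1 and Fbln2 came next (0.337), and Eln and Fbn1 were farthest apart (3.97).

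Markers of other cell types and of handling stress differed between libraries. The 9 fibroblast markers summed to 5469 and 5921 FPKM proximally and 5227 and 4534 FPKM distally, with 4 positive and 5 negative differences (median -0.01). Decorin (Dcn), a matrix proteoglycan, was the highest of them, at 2872 and 3671 FPKM proximally and 2470 and 2353 FPKM distally. Dermatopontin (Dpt), another matrix protein, stood at 132 and 375 FPKM proximally and 64.4 and 99.9 FPKM distally. Ly6a, which encodes the sorted antigen Sca-1, was lower proximally without overlap, at 687 and 738 FPKM against 1016 and 868 FPKM distally, while Thy1 lay between 10.5 and 17.5 FPKM in the 4 libraries. Markers of endothelium (7 genes) and leukocytes (6 genes) summed to at most 9.67 and 3.01 FPKM per library, with Cd3e at 0 in all 4 libraries and Ptprc at 0 in proximal 2 and distal 2. Schwann cell markers (4 genes) summed to at most 0.556 FPKM, and of the 4 mesothelial markers Msln did not exceed 0.0187 FPKM and Lrrn4 was at 0, while Wt1 stood at 20.9 and 16.7 FPKM proximally and 32.3 and 22.0 FPKM distally. Of 6 markers of adventitial fibroblasts, cells known for high Mfap5, 5 had negative differences, against 39.6% of all tested genes. Pi16 was nearly equal, at 114 and 88.6 FPKM proximally against 113 and 91.5 FPKM distally. Dpp4 stood at 1.86 and 1.95 FPKM proximally against 6.03 and 6.32 FPKM distally. Sema3c was higher proximally without overlap, at 30.8 and 41.5 FPKM against 21.9 and 26.5 FPKM distally. The list summed to 584 and 665 FPKM proximally and 778 and 681 FPKM distally, and its part in the Mfap5 values was not tested.

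Epithelial markers set proximal 3 apart. The 7 luminal markers summed to 130 and 633 FPKM proximally and to 137 and 221 FPKM distally, and the 5 basal markers to 19.5 and 120 FPKM against 8.28 and 39.6 FPKM. Mfap4, Fbln1 and Lox were likewise highest in proximal 3, and the part of epithelial cells in their values was not tested. Without proximal 3 the log2 difference was 3.08 for Eln, 1.59 for Mfap4 and 0.87 for Fbln1. All 10 dissociation stress genes had positive differences, against 60.4% of all tested genes, and 5 of them were higher in both proximal libraries, against 13.0%. The list summed to 20304 and 12722 FPKM proximally against 14428 and 6882 FPKM distally. The part of stress in the differences of the 10 genes was not tested.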

How the data were processed

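RNA of 4 sorted stromal samples was amplified with SMART-Seq v4 reagents and sequenced by Illumina, per the labels' protocols. The chemistry does not mark strand. The submitters' processing notes name bcl2fastq 1.8.3, TopHat2 0.6, Cufflinks 0.0.6 and mm10, with no order. The deposited files give, per the file headers, FPKM with lower and upper bounds and a coverage signal for 63241 transcripts. FPKM holds no counts, so no count model was used.

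Gene names came from positions in GENCODE M21, on the same assembly, by span overlap times length similarity (minimum 0.8), otherwise by exon ends within 100 bp or span. This named 87.9% of transcripts, holding 96.3% of FPKM. All 13 transcripts of the 10 genes with a mean of at least 1 FPKM matched the position of their RefSeq gene. The 7 genes with failed or capped estimates were left out. Genes at 1 FPKM or more in at least 2 libraries were fitted as log2(FPKM + 1), which understates changes of low genes, with limma 3.58.1 in R 4.3.3 (region as the only term, mean trend, two-sided), Benjamini-Hochberg adjusted over 11264 genes. Other steps used pandas 2.3.3 under Python 3.11.15.

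The 10 genes and all lists were chosen with earlier results of these data known. The text names the 10 genes and, per further list, the 3 with the largest difference and those at an unadjusted p under 0.05. For marker lists it names defining markers.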

Additional observations from a re-analysis of the deposited data

How the results depend on the processing

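Alternatives were pseudocounts of 0.1 and 5, no filter, quantile normalization, median ratio scaling, the library number as a replicate block, each library left out, the top transcript per gene, transcripts within the gene span and limma without a trend. Of 130 results for single genes under them, 122 kept their direction and their side of the threshold, 4 reversed and 4 newly passed. These counts are partly fixed in advance. No filter, the replicate block, the gene span and the fit without a trend left the difference of each of the 10 genes unchanged, so they could reverse none. As 0 of the 10 genes passed in the main fit, keeping the side of the threshold meant not passing again. Scaling reversed the sign of none of the 10 genes, while quantile normalization and median ratio scaling moved the median of all genes by -0.12 and -0.15. The median difference of the 10 genes, 0.14, was -0.029 under median ratio scaling and ranged from -0.042 to 0.19 with 1 library left out. The count of called genes, 0 of 11264, was 465 of 11264 with the replicate block. It ranged from 0 to 40 with 1 library left out (40 without distal 2, 26 without distal 3). The replicate block called Eln (adjusted p = 0.00855), Mfap4 (0.0154) and Fbln1 (0.0457, all limma), and 0 of the other 7 genes. These 3 of the 10 genes stand beside 465 of all 11264 tested genes in that fit. No label says what a number marks, and with 2 pairs the number is no shown pairing; deviations from the region means correlated at 0.816 across genes between proximal 2 and distal 2. With 1 library left out, Fbln5 ranged from -0.46 to 0.23 and Lox from -0.21 to 1.002, and the cause was not tested. With 1 library left out, genes with non-overlapping regions numbered 4 to 5 above and 3 to 5 below (5 without distal 3), and under quantile normalization 2 lay below. Median ratio scaling kept 3 below, but with Fbln5 and Mfap5 in place of Fbn1 and Emilin1. Total fragments are unknown, so depth limits could not be set.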
